A study of Homo sapiens with 6 samples.

Results

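The 10 genes described here, DDIT3, NUPR1, ATF4, ATF3, TRIB3, CHAC1, SESN2, DDIT4, PPP1R15A and GDF15, encode regulators of the integrated stress response around the transcription factors ATF4 and CHOP. They were found by gene symbol among the 58825 genes of the data. The group was put together with the differences between these libraries already known, since DDIT3, NUPR1 and GDF15 had been seen to be higher, so its values, selected on these fold changes, are given as a description of these libraries and not as a test. RNA-seq was performed on NCI-H460, a human lung carcinoma cell line that the labels call a lung adenocarcinoma line, infected with lentivirus carrying an shRNA against PRMT5 (PRMT5-shRNA, 3 libraries) or a control shRNA that the labels describe as directed at GFP (NC-shRNA, 3 libraries). The cells were grown in RPMI-1640, and both groups carry a lentiviral shRNA, so no uninfected cells were compared. PRMT5 is the main arginine methyltransferase that places symmetric dimethyl marks on histones and other proteins. The study designed several hairpins against PRMT5, and the labels do not say which was sequenced, so an effect of 1 hairpin and an effect of less PRMT5 cannot be told apart. The study's text calls the 3 libraries of a group biological replicates.

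In the integrated stress response, kinases that sense unfolded protein, missing amino acids, double-stranded RNA or heme shortage phosphorylate the translation factor eIF2. General translation then slows, while the ATF4 message is translated better because of short upstream reading frames, so that ATF4 is set largely at the level of translation and its mRNA reports its activity poorly. ATF4 and its bZIP partners switch on genes of amino acid supply and the genes for CHOP (DDIT3), ATF3, TRIB3, CHAC1, SESN2 and DDIT4, and PPP1R15A closes the loop by bringing a phosphatase back to eIF2. In tumor cells the same response supports growth under nutrient shortage, and when it lasts, CHOP can turn it towards cell death.

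Promoter sequences are shown first because ATF4 and CHOP act through DNA elements near the start of genes. RefSeq promoter windows (GRCh38.p14, 250 bases before to 50 after an annotated start) were found for 9 of the 10 genes, all but NUPR1. They were searched on both strands for the C/EBP-ATF response element TGATGNAAN, the cyclic AMP response element TGACGTCA and the CCAAT box CCAAT. The CCAAT box is not taken here as an element of ATF4 or CHOP. The C/EBP-ATF element was present upstream of ATF3 (chr1:212565206-212565234, plus strand, outside the gene in GENCODE 29) and of CHAC1 (chr15:40953251-40953279, plus strand, in an exon of a longer annotated transcript, with the element on the opposite strand). The cyclic AMP response element was found at PPP1R15A alone of the 9 (chr19:48872353-48872380, plus strand, outside the gene), and DDIT3 had a pair of CCAAT boxes, 1 on each strand (chr12:57520600-57520624 and chr12:57520576-57520600, minus strand, in an intron of a longer transcript). The sequences read 5′ to 3′ on the strand of the gene with 10 bases on either side, and capitals mark the matched element:
ATF3: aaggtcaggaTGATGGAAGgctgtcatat
CHAC1: ctcccctgccGTTGCATCActcctgccag
PPP1R15A: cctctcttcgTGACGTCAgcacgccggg
DDIT3, first CCAAT box: cggggcggggCCAATgccggcgtgc
DDIT3, second CCAAT box: ccactttctgATTGGtaggttttgg

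In ATF3 the element began 191 bases before the start, in CHAC1 210 bases, and the element of PPP1R15A began 58 bases before the start. Of all 27305 genes with a window, 4.45% held the C/EBP-ATF element in at least 1 window, 2.25% the cyclic AMP response element and 39.7% a CCAAT box. CCAAT boxes were found at DDIT3, ATF3, CHAC1, SESN2, DDIT4 and GDF15, and no match of one motif overlapped a match of another in these windows. The windows of ATF4 and TRIB3 did not hold any of the 3 letter strings. These matches are letters in a window and were not tested as binding sites.

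The deposited counts summed to between 53531257 and 70518401 per library, and 20295 genes with enough counts were tested. The targeted gene, PRMT5, had estimated counts of 9604, 8812 and 7966 with NC-shRNA and of 2502, 3188 and 2203 with PRMT5-shRNA. As CPM, a count set to a common library size with edgeR's TMM factors, its mean was 133 ± 8.90 with NC-shRNA and 43.2 ± 4.28 with PRMT5-shRNA (SD, n = 3 each), at a log2 fold change of -1.62 (edgeR's quasi-likelihood test, adjusted p = 0.0063). Markers of lung epithelium were high, with a summed FPKM between 344 and 361 with NC-shRNA and between 318 and 329 with PRMT5-shRNA, which did not overlap. The 8 endothelial markers summed to between 1.87 and 2.01 FPKM with NC-shRNA and between 2.37 and 2.84 with PRMT5-shRNA, with none at 0 in every library, while the fibroblast sums (10.3 to 11.4 and 10.2 to 12.5, with COL1A2 and PDGFRA at 0) and blood cell sums (6.58 to 8.64 and 6.56 to 7.68, with CD3E at 0) overlapped. The part of these shifts in the results below was not tested. In bulk RNA, fewer cells that express a gene and less RNA per cell cannot be told apart.

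Per length, the 10 genes covered a 136-fold range in NC-shRNA cells. DDIT4 stood highest at 232 ± 7.71 FPKM (a level scaled to library size and to the length of all annotated exons of the gene, SD, n = 3), above ATF4 at 167 ± 1.75 and TRIB3 at 32.1 ± 0.995. DDIT3 (10.9 ± 1.50 FPKM), SESN2 (9.46 ± 0.843) and PPP1R15A (8.54 ± 1.46) followed and each overlapped the next in range. CHAC1 had 5.88 ± 0.999 FPKM and GDF15 2.74 ± 0.384. ATF3 (1.76 ± 0.223) and NUPR1 (1.71 ± 0.141) were lowest and overlapped each other. Per base of the longest coding transcript instead, PPP1R15A was at 11.1 against 9.46 for SESN2, so the order of this pair depends on the length used. ATF3 was then at 3.49 against 1.77 for NUPR1, the same order of means at a larger distance. In the deposited values ATF4 and DDIT4 belonged to the most abundant messages of these cells, at or above 99.2% and 99.5% of the tested genes, while NUPR1 and ATF3 stood near the middle, at or above 48.4% and 48.9%.

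**Figure D1:**
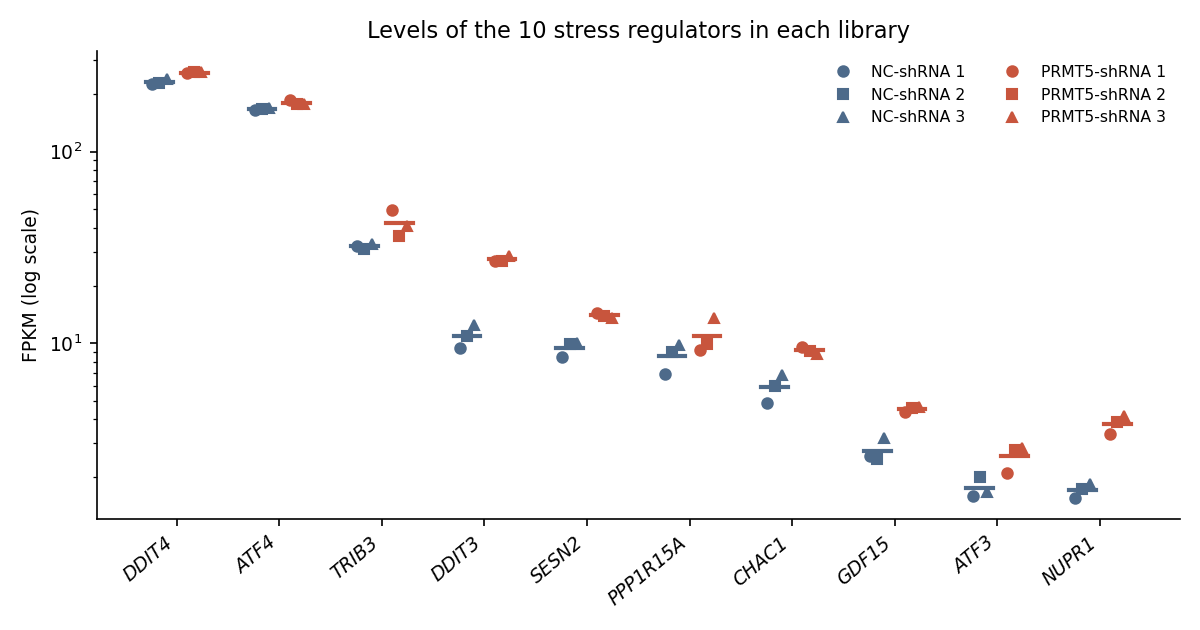
Level of each gene in every library, in FPKM on a log axis, ordered by the NC-shRNA mean, with 1 point per library and a line at the group mean. DDIT4 and ATF4 lie far above the others, and DDIT3 moves from the level of SESN2 and PPP1R15A to a level of its own in the PRMT5-shRNA libraries. The distance of DDIT3 from its neighbours depends on the length used, here that of all annotated exons. Per base of the longest coding transcript, DDIT3 was at 13.3 in NC-shRNA, between TRIB3 at 44.2 and PPP1R15A at 11.1.

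In PRMT5-shRNA cells the order of the first 8 places was the same, but distances between neighbours differed. DDIT3 had 27.5 ± 0.936 FPKM there (SD, n = 3) and no longer overlapped SESN2, at 14.0 ± 0.401. NUPR1, at 3.79 ± 0.412 FPKM, stood above ATF3, at 2.56 ± 0.400, in all 3 PRMT5-shRNA libraries, while the NC-shRNA libraries had put ATF3 above NUPR1 in 2 of 3. The exon length used was 1.99 times the longest coding transcript for ATF3 but 1.03 times for NUPR1. This change of order therefore depends on the length used. PPP1R15A and CHAC1, apart in NC-shRNA cells, overlapped in PRMT5-shRNA cells, at 10.9 ± 2.29 and 9.16 ± 0.394 FPKM. Orders and overlaps between genes given here refer to the length of all annotated exons and can differ with another length.

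The transcription regulators ATF4, DDIT3, NUPR1 and ATF3 covered the whole range of differences in the group. ATF4 (ENSG00000128272, chromosome 22 of GRCh38, 39519695 to 39522685), the factor at the head of the response, had 509, 499 and 497 CPM in NC-shRNA replicates 1, 2 and 3 and 535, 517 and 508 CPM in PRMT5-shRNA replicates 1, 2 and 3. The groups overlapped, since PRMT5-shRNA replicate 3 was below NC-shRNA replicate 1. The log2 fold change was 0.05 (standard error, SE, 0.047), a fold of 1.04, and 0.03 without PRMT5-shRNA replicate 1. In FPKM, which carry a different scaling between libraries, its groups did not overlap, at 166 to 169 against 178 to 186.

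DDIT3 (ENSG00000175197, chromosome 12, minus strand, 57516588 to 57521737), which encodes CHOP, a bZIP factor that heterodimerizes with C/EBP proteins, had counts of 1006, 1182 and 1175 with NC-shRNA and of 2202, 2836 and 2443 with PRMT5-shRNA. In CPM these were 15.0, 17.1 and 18.9 against 40.3, 40.5 and 42.5. The groups lay at least 21.4 CPM apart, and the PRMT5-shRNA libraries lay closer together (coefficient of variation 2.85% against 11.6%). The log2 fold change was 1.28 (SE 0.10), the largest of the 10 genes. The gene shares exonic positions with MARS and MBD6 on the other strand and with AC022506.1 on the same strand, and whether the authors' counting used the strand is not given in the sources used here. MARS had 204 to 217 CPM with NC-shRNA and 243 to 256 CPM with PRMT5-shRNA, without overlap, at a log2 fold change of 0.24 (edgeR unadjusted p = 0.0032, adjusted p = 0.20), and its part in the DDIT3 counts was not tested. The counts of MBD6, not scaled to library size, ran from 1789 to 2017 with NC-shRNA and from 1830 to 2159 with PRMT5-shRNA. Library sizes differed, so the overlap of these counts does not show that the level of MBD6 was the same. Its part in the DDIT3 counts was not tested either. AC022506.1 had 1 count in each library.

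NUPR1 (ENSG00000176046, chromosome 16, minus strand, 28532708 to 28539174) encodes a small nuclear protein induced by cell stress. It had 10.8, 11.7 and 12.2 CPM with NC-shRNA and 21.7, 25.4 and 26.8 CPM with PRMT5-shRNA. All PRMT5-shRNA libraries were higher than all NC-shRNA libraries, with replicate 1 the lowest of its group. The log2 fold change was 1.09 (SE 0.11). Its FPKM value refers to the union of all annotated exons, 5674 bases, while its annotated coding transcripts run from 550 to 5491 bases, so its place in the order of levels depends on which transcript was present.

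ATF3 (ENSG00000162772, chromosome 1, 212565334 to 212620777), a bZIP factor that can repress or activate stress genes, had 7.92, 9.71 and 7.92 CPM in NC-shRNA and 9.75, 12.8 and 13.1 CPM in PRMT5-shRNA libraries. PRMT5-shRNA replicate 1 was only 0.0397 CPM above NC-shRNA replicate 2, so the groups were barely apart. The log2 fold change was 0.48 (SE 0.16).

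**Figure D2:**
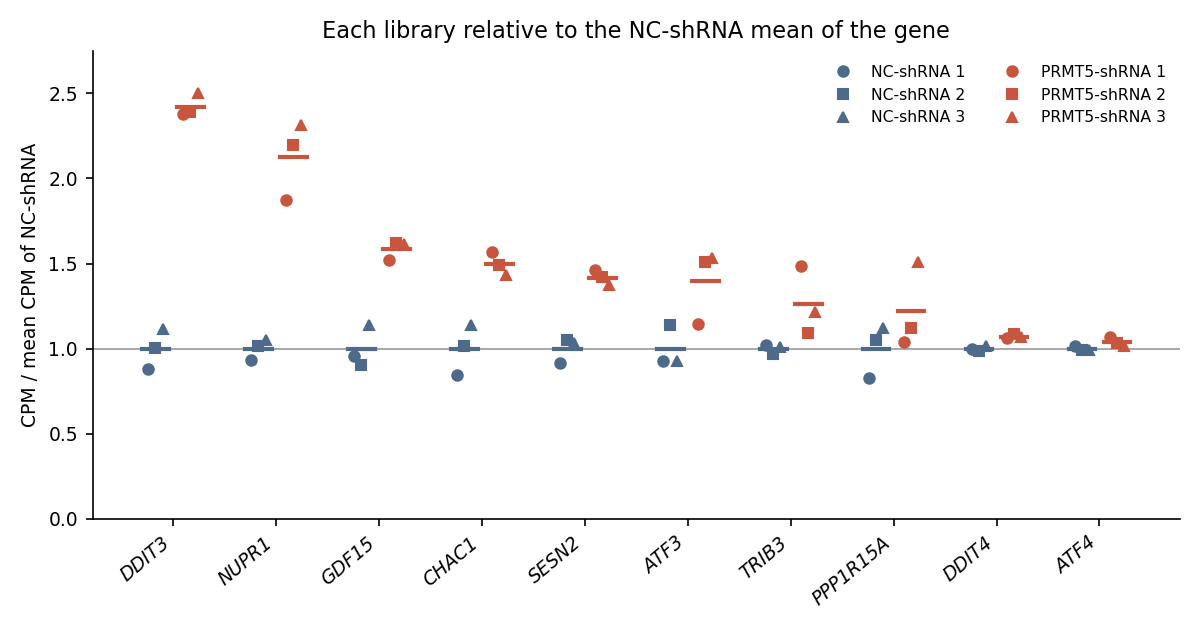
CPM of each library divided by the NC-shRNA mean of the gene, ordered by fold change, with 1 point per library and a line at the group mean. The PRMT5-shRNA libraries of DDIT3 sit near 2.42 times the NC-shRNA mean and those of ATF4 near 1.04 times, and TRIB3, ATF3 and PPP1R15A show a wide spread among the PRMT5-shRNA libraries.

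Feedback inhibitors of the response differed less than DDIT3 in fold, with a wide spread between PRMT5-shRNA libraries. The coefficient of variation in CPM was 15.9% there for TRIB3 and 20.5% for PPP1R15A, against 2.92% and 15.1% with NC-shRNA. TRIB3 (ENSG00000101255, chromosome 20, 362835 to 397559), a pseudokinase induced by ATF4 and CHOP that restrains ATF4 activity and AKT signalling, had 119, 112 and 117 CPM with NC-shRNA and 172, 127 and 141 CPM with PRMT5-shRNA. The groups did not overlap, but PRMT5-shRNA replicate 1 stood well above replicates 2 and 3. The log2 fold change was 0.34 (SE 0.11), and 0.20 without PRMT5-shRNA replicate 1. PPP1R15A (ENSG00000087074, chromosome 19, 48872392 to 48876057), also known as GADD34, targets protein phosphatase 1 to eIF2. It had 25.9, 32.7 and 34.9 CPM in NC-shRNA and 32.3, 35.0 and 47.0 CPM in PRMT5-shRNA libraries. The groups overlapped on both scales, and only PRMT5-shRNA replicate 3 was clearly above all NC-shRNA libraries. Its log2 fold change of 0.29 had the largest SE of the group, 0.17, and was 0.11 without PRMT5-shRNA replicate 3 and 0.17 without NC-shRNA replicate 1.

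Among the effectors, CHAC1 (ENSG00000128965, chromosome 15, 40952962 to 40956519), an enzyme that degrades glutathione, had 12.1, 14.6 and 16.4 CPM in NC-shRNA and 22.5, 21.5 and 20.6 CPM in PRMT5-shRNA libraries. The groups were separated by 4.22 CPM, and the log2 fold change was 0.58 (SE 0.13). GDF15 (ENSG00000130513, chromosome 19, 18374731 to 18389176), a secreted member of the TGF-β superfamily that reports cell stress to the body, had 6.55, 6.16 and 7.77 CPM in NC-shRNA and 10.4, 11.1 and 11.0 CPM in PRMT5-shRNA libraries. Its groups did not overlap either, and its log2 fold change was 0.66 (SE 0.13), the third largest of the 10. GDF15 was measured on the fewest counts of the group, 427 to 483 in NC-shRNA libraries.

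SESN2 and DDIT4 both restrain mTORC1, the kinase complex that couples amino acids and growth factors to cell growth, SESN2 as a leucine sensor and DDIT4 through the TSC complex. SESN2 (ENSG00000130766, chromosome 1, 28259527 to 28282491) had 35.9, 41.0 and 40.3 CPM in NC-shRNA and 57.0, 55.5 and 53.6 CPM in PRMT5-shRNA libraries. The groups were 12.6 CPM apart, and the log2 fold change was 0.50 with a small SE of 0.077. DDIT4 (ENSG00000168209, chromosome 10, 72273920 to 72276036) had 567, 562 and 578 CPM in NC-shRNA and 603, 618 and 606 CPM in PRMT5-shRNA libraries. Its groups did not overlap, yet the log2 fold change was only 0.10 (SE 0.045). The antisense gene DDIT4-AS1, which overlaps it, had 0 counts in every library. Both mTORC1 inhibitors were thus higher in every PRMT5-shRNA library, SESN2 by a fold of 1.42 and DDIT4 by 1.07.

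All 10 genes were tested and all 10 had a log2 fold change above 0, from 0.05 to 1.28, with a median of 0.49 beside 0.01 over all genes tested. At an adjusted p under 0.05 (edgeR's quasi-likelihood test, Benjamini-Hochberg over all genes), 2 were called, DDIT3 and NUPR1, both higher, where 0.0493% of all genes were called higher and 0.0197% lower. At an unadjusted p under 0.05, 7 were higher (all but ATF4, DDIT4 and PPP1R15A), beside 6.54% of all genes higher and 6.29% lower. All PRMT5-shRNA libraries exceeded all NC-shRNA libraries in CPM for 8 genes, all but ATF4 and PPP1R15A, beside 11% of all genes, and 10.7% of all genes were separated the other way. The fold exceeded 1.25 for 7 genes, 1.5 for 3 and 2 for 2, beside 17.5%, 8.67% and 3.31% of all genes. Since the genes were chosen with this contrast known, nothing is read from these counts. The 2 calls depended on single libraries and on the tool. NUPR1 lost its call without any 1 of the 6 libraries (adjusted p 0.078 to 0.16), DDIT3 lost it without NC-shRNA replicate 2 or any 1 PRMT5-shRNA library (adjusted p 0.054 to 0.084), and limma on log2(FPKM + 1) did not call NUPR1 (adjusted p 0.062). DESeq2, run on 32242 genes, called 5 of the 10, with CHAC1, SESN2 and GDF15 added. It also called more genes in all, 413 (241 higher, 172 lower) where edgeR called 14.

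**Figure D3:**
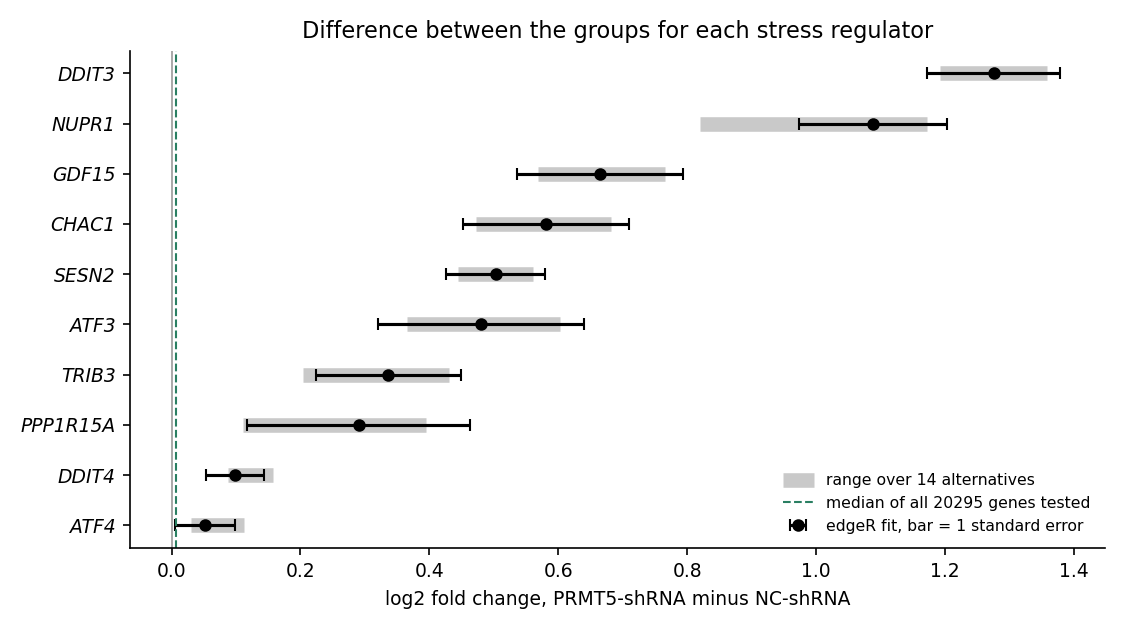
Log2 fold change of each gene between PRMT5-shRNA and NC-shRNA libraries in the edgeR fit, with a bar of 1 SE, the range over 14 other ways of processing in grey and the median of all genes tested as a dashed line. DDIT3 and NUPR1 stand apart at 1.28 and 1.09, and the ranges of all 10 genes stay above 0.

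Within each library, the level of a gene can be set against that of ATF4, a ratio that does not depend on scaling between libraries. DDIT3 messages stood at a log2 FPKM ratio to ATF4 of -4.15, -3.93 and -3.77 with NC-shRNA and -2.79, -2.73 and -2.64 with PRMT5-shRNA. The ratio of DDIT3 to ATF4 was therefore higher by 1.23 on the log2 scale, and no library of one group reached the other group. For NUPR1, GDF15, CHAC1, SESN2 and TRIB3 the ratios did not overlap either, with differences of 1.03, 0.62, 0.54, 0.45 and 0.27. The ratios of ATF3, PPP1R15A and DDIT4 overlapped between the groups, with differences of 0.43, 0.23 and 0.05. ATF4 itself differed by an FPKM fold of only 1.08, so these ratios largely restate the fold changes above. The share of all genes with separated ratios to ATF4 was not computed.

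Within groups, the 10 genes did not move as a block from library to library. Deviations of log2 CPM from the group mean were correlated over the 6 libraries for each of the 45 pairs of genes, and 29 of the Pearson r were positive, with a median of 0.12. The points share their library and its scaling, and 6 points, centred within groups of 3, make each r imprecise. The pairs named next are those with the highest and lowest r of the 45. CHAC1 went with SESN2 (r = 0.89) and with DDIT3 (r = 0.87), and NUPR1 with PPP1R15A (r = 0.86). ATF4 went against NUPR1 (r = -0.99) and PPP1R15A (r = -0.89), and ATF3 against TRIB3 (r = -0.84), although deviations of ATF4 were at most 0.041 in size on the log2 scale. TRIB3 deviated by 0.24 in PRMT5-shRNA replicate 1, where ATF3 deviated by -0.26 and PPP1R15A by -0.21. NC-shRNA replicate 1 was below its group mean for 8 of the 10 genes, with a mean deviation of -0.09, and NC-shRNA replicate 3 was above it for 8, with a mean deviation of 0.08. The PRMT5-shRNA libraries had 4, 5 and 5 genes above the mean.

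Paralogs, genes of shared ancestry with a member, gave a comparison within each family. Of 10 paralogs, 9 were tested and NUPR2 had 0 counts in every library. At an unadjusted p under 0.05, 2 were higher, JDP2 and PPP1R15B, and 2 were lower, ATF5 and DDIT4L (beside 6.54% and 6.29% of all genes), and none passed an adjusted p of 0.05. ATF5, the factor closest to ATF4 and itself regulated through translation, had 14.7, 13.0 and 11.0 CPM in NC-shRNA and 9.67, 9.45 and 4.92 CPM in PRMT5-shRNA libraries, a log2 fold change of -0.68 (SE 0.27, adjusted p = 0.36). The ATF4 to ATF5 ratio was higher in every PRMT5-shRNA library, and replicate 3 stood apart at 6.91 against 5.99 and 5.98 on the log2 scale. JDP2, a bZIP repressor related to ATF3, had 32.5, 34.5 and 40.2 CPM in NC-shRNA and 52.2, 55.4 and 51.3 CPM in PRMT5-shRNA libraries, a log2 fold change of 0.57 (SE 0.095, adjusted p = 0.14). With both higher, the ATF3 to JDP2 ratio overlapped between the groups.

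In the other families, too, some ratios were separated between the groups and some overlapped. Overlap with 3 libraries per group does not show that a ratio was the same. The share of all gene pairs with separated ratios was not computed. SESN2 was higher relative to SESN1 and SESN3 in every PRMT5-shRNA library, with log2 FPKM ratios of 2.40 ± 0.194 against 2.94 ± 0.0602 to SESN1 and 0.76 ± 0.0161 against 1.09 ± 0.0731 to SESN3 (SD, n = 3 each). SESN1 had a log2 fold change of -0.04, so the ratio to SESN1 largely restates the fold change of SESN2. CHAC1 stood below its paralog CHAC2 in FPKM in all NC-shRNA libraries, at log2 ratios of -1.09, -0.56 and -0.21, and above it in all PRMT5-shRNA libraries, at 0.09, 0.12 and 0.24. Which gene is above depends on the lengths used. In counts CHAC1 already exceeded CHAC2 in NC-shRNA replicates 2 (1015 against 954) and 3 (1018 against 751). The shift between the groups does not depend on the lengths. DDIT4 exceeded DDIT4L by a log2 ratio of 6.78 ± 0.0480 in NC-shRNA and 7.15 ± 0.0872 in PRMT5-shRNA libraries, again without overlap. The log2 fold change of DDIT4L was -0.28, larger in size than the 0.10 of DDIT4. For TRIB3 against TRIB1 and TRIB2 and for PPP1R15A against PPP1R15B, the ratios overlapped, with differences of 0.08, -0.01 and 0.10. PPP1R15B, the constitutive eIF2 phosphatase subunit, was itself more abundant per length than PPP1R15A in NC-shRNA cells, at 42.9 against 8.54 FPKM, and had a log2 fold change of 0.18 (SE 0.058, adjusted p = 0.29).

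**Figure D4:**
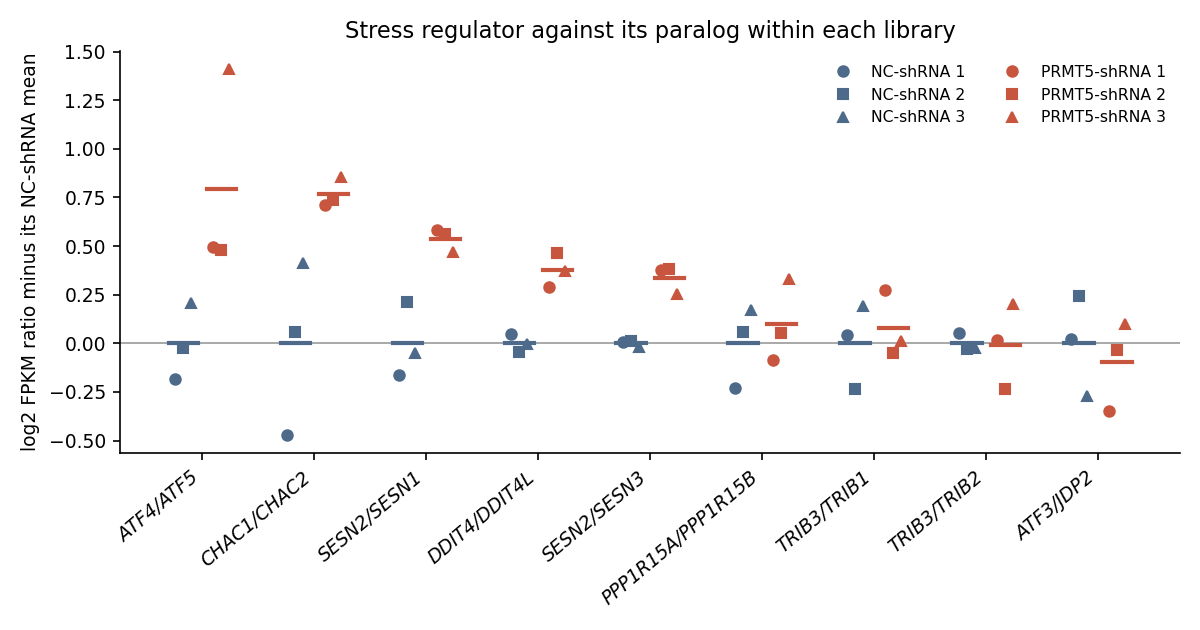
Log2 FPKM ratio of each stress regulator to a paralog in every library, minus the mean of that ratio in NC-shRNA, with 1 point per library and a line at the group mean. The ratios of ATF4 to ATF5, CHAC1 to CHAC2, SESN2 to SESN1 and SESN3 and DDIT4 to DDIT4L are higher in every PRMT5-shRNA library, and the others overlap.

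Genes upstream of ATF4 were listed next. Of 23 genes for eIF2 kinases, eIF2 and its exchange factor, regulators and phosphatases, 2 were higher (8.70%, near the 6.54% of all genes) and 3 lower (beside 6.29%) at an unadjusted p under 0.05, none passed an adjusted p of 0.05, and the median log2 fold change was -0.03. DNAJC3, which encodes an inhibitor of eIF2 kinases and is a target of the unfolded protein response, had 105, 107 and 95.0 CPM in NC-shRNA and 79.4, 82.9 and 83.2 CPM in PRMT5-shRNA libraries, a log2 fold change of -0.32 (adjusted p = 0.19). EIF2B1, a subunit of the exchange factor that phosphorylated eIF2 blocks, had a log2 fold change of -0.19 (adjusted p = 0.31).

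Of 24 tested bZIP partners of ATF4, ATF3 and CHOP, 6 were higher and 2 lower at an unadjusted p under 0.05 (beside 6.54% of all genes higher and 6.29% lower), none passed an adjusted p of 0.05, and the median was 0.16. CEBPG, which dimerizes with ATF4 on amino acid response genes, had 51.3, 57.8 and 59.9 CPM in NC-shRNA and 72.2, 74.9 and 76.7 CPM in PRMT5-shRNA libraries, a log2 fold change of 0.41 (adjusted p = 0.17). JUNB, an AP-1 subunit, had a log2 fold change of 0.29 (adjusted p = 0.18). For both genes the groups did not overlap.

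The other targets of ATF4 and CHOP were the list with the most genes on 1 side. Of 60 tested, 32 were higher and 2 lower at an unadjusted p under 0.05 (53.3% higher, beside 6.54% of all genes higher and 6.29% lower). Without overlap, 35 were higher and 3 lower (58.3% higher, beside 11% of all genes higher and 10.7% lower), and the median was 0.21. None passed an adjusted p of 0.05, and the list was written with earlier results on such genes in these libraries known, so it is not independent evidence of a direction. CARS, a cysteinyl-tRNA synthetase, had 91.1, 106 and 107 CPM in NC-shRNA and 149, 158 and 168 CPM in PRMT5-shRNA libraries, a log2 fold change of 0.64 (SE 0.084, adjusted p = 0.090). ADM2, a secreted peptide of the calcitonin family, had 9.07, 10.7 and 11.9 against 18.8, 19.6 and 20.5 CPM, a log2 fold change of 0.89 (SE 0.13, adjusted p = 0.10). TXNIP, which binds thioredoxin and limits glucose uptake, had a log2 fold change of 0.44 (adjusted p = 0.10). The 2 lower genes were ATF5 and CEBPB, both transcription factors, at -0.68 and -0.15. ATF5, CEBPB and CEBPG stand in this list and in that of bZIP partners.

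The IRE1-XBP1 and ATF6 arms of the unfolded protein response were listed too. Of 33 genes of the IRE1-XBP1 and ATF6 arms, 1 was higher and 13 were lower at an unadjusted p under 0.05 (beside 6.54% of all genes higher and 6.29% lower), none passed an adjusted p of 0.05, and the median was -0.13. A log2 fold change above 0 was found for 9 of the 33, and the sensors and the factor that give the arms their names, picked after their values were seen, were at 0.21 (ERN1), 0.00 (ATF6) and -0.04 (XBP1). The 1 higher gene was ATF6B, a relative of ATF6, at 0.21. HSPA5, the main chaperone of the endoplasmic reticulum, had 2266, 1985 and 1718 CPM in NC-shRNA and 1406, 1407 and 1336 CPM in PRMT5-shRNA libraries, a log2 fold change of -0.52 (SE 0.099, adjusted p = 0.17). MANF, a secreted stress protein of the same compartment, had 171, 129 and 114 CPM in NC-shRNA and 94.1, 89.8 and 85.9 CPM in PRMT5-shRNA libraries, a log2 fold change of -0.62 (adjusted p = 0.21). SDF2L1, a cofactor of that chaperone, was at -0.69 (adjusted p = 0.21). The groups did not overlap for these genes. NC-shRNA replicate 1, the library in which 8 of the 10 stress regulators were below their group mean, was the highest for HSPA5, MANF and SDF2L1.

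SESN2 and DDIT4 act on mTORC1, so that pathway was listed as well. Of 35 mTORC1 pathway genes, 4 were higher and 1 lower at an unadjusted p under 0.05 (beside 6.54% and 6.29% of all genes), with none past an adjusted p of 0.05 and a median of -0.01. ULK1, the autophagy kinase that mTORC1 inhibits, had 50.0, 48.9 and 49.0 CPM in NC-shRNA and 63.0, 59.0 and 60.1 CPM in PRMT5-shRNA libraries, a log2 fold change of 0.30 (adjusted p = 0.18). DEPTOR, an inhibitory mTOR subunit at low level, was at 0.62 (adjusted p = 0.22) and EIF4EBP1, a translation repressor under mTORC1 that stands also in the list of ATF4 and CHOP targets, at 0.20 (adjusted p = 0.30).

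**Figure D5:**
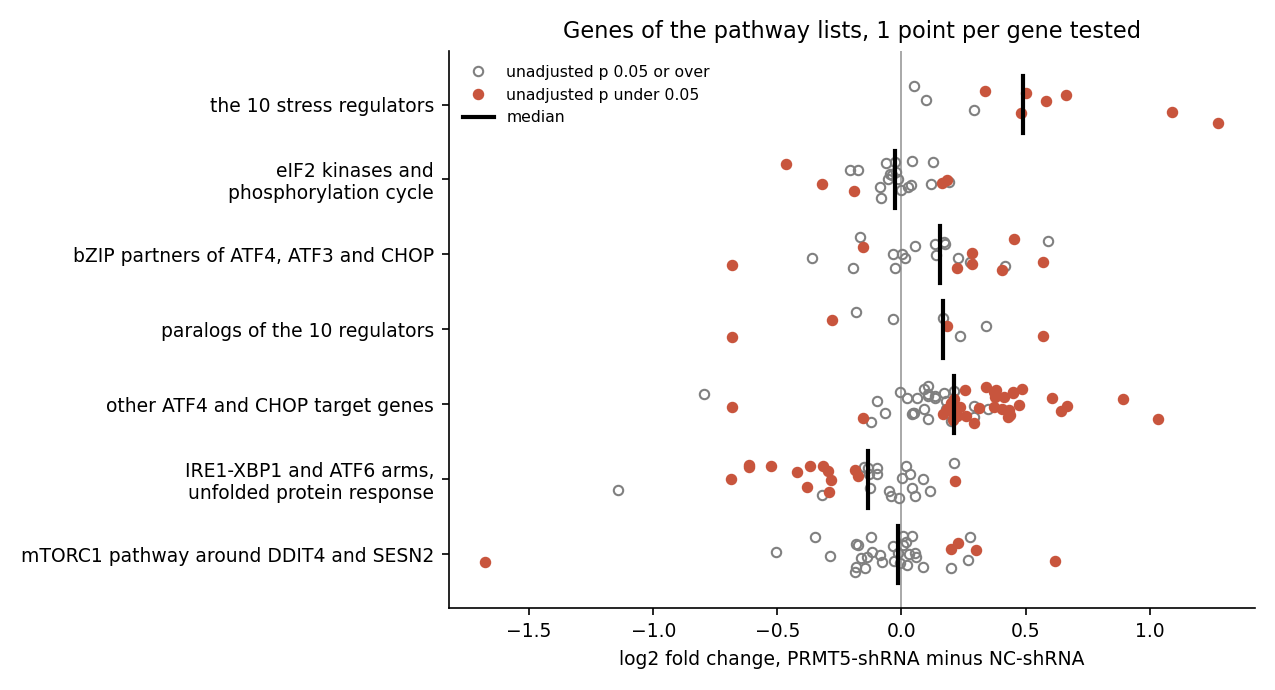
Log2 fold change between PRMT5-shRNA and NC-shRNA libraries for every tested gene of the 10 stress regulators and of the pathway lists, with 1 point per gene, filled where the unadjusted p is under 0.05, and a line at the median. The medians run from -0.13 for the IRE1-XBP1 and ATF6 arms to 0.49 for the 10 stress regulators, and the other ATF4 and CHOP targets lie mostly right of 0.

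Finally, genes whose pattern over the 6 libraries was most like the mean of the 10 genes were taken from 9954 genes with a mean of at least 10 CPM. The closest were FGG, the gamma chain of fibrinogen (Pearson r = 0.999 over 6 libraries), PSAT1, an enzyme of serine synthesis (r = 0.998), CHST3 (r = 0.996), REEP3 (r = 0.996) and OLFML2A (r = 0.995). FGG had 44.3, 46.2 and 50.8 CPM in NC-shRNA and 87.8, 84.6 and 87.3 CPM in PRMT5-shRNA libraries. PSAT1 had 317, 325 and 341 CPM in NC-shRNA and 414, 413 and 417 CPM in PRMT5-shRNA libraries. With 6 libraries in 2 groups, any gene with separated groups and little spread reaches a high r, and CHST3 did so with a log2 fold change of only 0.07.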

How the data were processed

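RNA-seq libraries of NCI-H460 cells were made with a stranded mRNA kit (3 NC-shRNA, 3 PRMT5-shRNA, grouped and numbered by the sample titles). The submitters' processing notes list cutadapt 1.9, HISAT2 2.0.4, StringTie 1.3.4d and GRCh38. The paper's methods name a mouse assembly, but 58552 of 58825 gene identifiers were found in GENCODE 29 of GRCh38. The authors deposited an estimated count per gene, not normalized and already whole, and FPKM values. The deposited FPKM values equalled the count divided by the length of all annotated exons and a library constant within 2% for about 83.7% to 83.9% of genes with FPKM of at least 5. This held for the 10 genes except TRIB3, whose values were 1.13 times as high. Low counts gathered at 4 (1214 to 1319 genes per library, against 283 to 546 genes at 3 or 5), so a count was not read as 1 fragment.

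Counts were TMM-scaled, filtered with filterByExpr and tested by edgeR's quasi-likelihood test (edgeR 4.0.16, R 4.3.3) over 20295 genes. The test planned for counts was kept for these estimated counts. Adjusted p-values are Benjamini-Hochberg over all genes tested. The members and the gene lists were chosen with earlier results of these data known. The named genes were the 10 members, PRMT5, up to 3 genes per list with the smallest p, paralogs, overlapping genes and the 5 most alike genes. A gene list is not reported here. CEBPB was named after its value was seen. Alternatives used DESeq2 1.42.0, limma 3.58.1 on log2(FPKM + 1) and log2(FPKM + 0.1) with a mean FPKM of at least 0.5, other scaling factors, no filter, counts divided by 4, a replicate block, and fits that left out 1 library at a time. No library duplicated another: the chi-square per degree of freedom between any 2 was 42.2 or more. The fits were tested on simulated counts.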

Additional observations from a re-analysis of the deposited data

How the results depend on the processing

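Alternatives were other ways to scale, filter and test the same libraries, listed with earlier results of these data known, and the correction for gene length was chosen after seeing the data. Of 20295 genes, 14 were called. DESeq2, run on 32242 genes, called 413 (241 higher, 172 lower), and with 1 library left out the count was between 8 (without NC-shRNA replicate 2) and 25 (without NC-shRNA replicate 3). With the replicate block 0 genes were called, where 2382 had an unadjusted p under 0.05. Of the 10 stress regulators, 2 were called, 5 by DESeq2, 1 (DDIT3) by limma on log2(FPKM + 1), 0 with the replicate block (8 higher at an unadjusted p under 0.05), and 0 to 1 with a library left out. Deviations of libraries with the same replicate number correlated across 10643 genes at 0.02, -0.05 and 0.10. The highest r with another number was 0.10, 0.03 and -0.05. These weak values do not settle whether the replicate numbers pair the libraries. Under the block PRMT5 was at -1.62 (adjusted p = 0.14) and DDIT3 at 1.28 (adjusted p = 0.18), and NUPR1 at 1.08 (adjusted p = 0.21). The adjusted p of PRMT5 and DDIT3 over 14 alternatives ran from 3.16e-40 to 0.144 and from 2.20e-20 to 0.177. The cause of these losses was not tested. No log2 fold change of the 10 genes changed sign, and their median stayed between 0.44 and 0.56. DDIT3 stayed between 1.19 and 1.36, NUPR1 between 0.82 and 1.17 and ATF4 between 0.03 and 0.11. Minus the median of 500 genes of like exon length, DDIT3 was at 1.36 and NUPR1 at 1.07. On FPKM the log2 fold change of a gene shifted by a median of 0.05 to 0.06, about the size of the ATF4 difference.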
